A study of Mus musculus with 36 samples.

Results

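The 8 genes described here encode parts of the neuromuscular junction or mark the loss of its nerve: the acetylcholine receptor subunits Chrna1, Chrnb1, Chrnd, Chrne and Chrng, the receptor-clustering kinase Musk, the adhesion molecule Ncam1 and the histone deacetylase Hdac4. They were taken by name and are 8 of the 17873 genes with a value in a table of 45802 rows. RNA sequencing had been done on whole extensor digitorum longus (EDL), a fast muscle of the lower leg, and soleus, a slow one, from 1-year-old male mice of the C57BL/6JBom background. Mice in which genes of the estrogen-related receptors (ERRs), transcription factors without a known natural hormone that act on mitochondrial genes, were flanked by loxP sites had been crossed to a line carrying Cre under the human alpha-skeletal actin (HSA) promoter, which is active in muscle fibres. The comparison asks what deleting ERRs from muscle does to gene expression there. In each muscle there were 3 libraries each of ERRalpha mKO (muscle-specific knockout of ERRalpha), ERRbeta/ERRgamma dmKO (double knockout of ERRbeta and ERRgamma) and ERRalpha/ERRgamma dmKO (double knockout of ERRalpha and ERRgamma), each with 3 libraries of its own wild-type (WT) littermates, 36 libraries in 12 groups. WT columns were read as floxed without Cre. No group carries Cre without floxed alleles, so Cre itself and the deletion cannot be told apart, and the groups are called knockout-labelled.

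At the endplate the nerve releases acetylcholine, which opens a pentameric receptor channel in the fibre membrane. The adult channel contains the alpha, beta, delta and epsilon subunits, and the fetal channel has gamma in place of epsilon. Agrin from the nerve acts through Lrp4 on Musk, which clusters the receptor, while nuclei away from the synapse silence the subunit genes as long as the fibre is electrically active. After denervation Hdac4 accumulates and represses Dach2, the myogenic factor Myog is released from repression, and Chrna1, Chrng, Musk and Ncam1 are expressed along the whole fibre.

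On mouse build GRCm38 (GENCODE M21 annotation), Chrna1 lies on the minus strand of chromosome 2 at chr2:73563215-73580338, Chrnb1 on the minus strand at chr11:69784036-69795943 and Chrne on the minus strand at chr11:70614883-70619216. Chrnd (chr1:87190607-87200070) and Chrng (chr1:87204657-87212694) are neighbours on the plus strand. Musk lies on the plus strand at chr4:58285960-58374303, Ncam1 on the minus strand at chr9:49502136-49798925 and Hdac4 on the minus strand at chr1:91928779-92195699. Signals are for whole genes. Annotated antisense genes share exonic sequence with Ncam1 (Gm11149) and Hdac4 (Gm26720), neither of which had a value here.

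Promoters of 4 receptor subunits and of Musk are shown because myogenic factors such as Myog act on receptor genes through E-boxes, and because the N-box is known from synapse-specific transcription. RefSeq (build GRCm38.p6) gave a 300-base window, 250 bases before and 50 after the start, for 6 of the 8 members. The 180 bases that end just before the RefSeq start are printed 5′ to 3′ in the direction of the gene, with E-boxes (CANNTG) and N-boxes (CCGGAA) in capitals, for Chrna1 (chr2:73580339-73580518, minus strand), Chrnb1 (chr11:69795938-69796117, minus strand), Chrne (chr11:70619195-70619374, minus strand), Chrng (chr1:87205631-87205810, plus strand) and Musk (chr4:58285782-58285961, plus strand).
Chrna1: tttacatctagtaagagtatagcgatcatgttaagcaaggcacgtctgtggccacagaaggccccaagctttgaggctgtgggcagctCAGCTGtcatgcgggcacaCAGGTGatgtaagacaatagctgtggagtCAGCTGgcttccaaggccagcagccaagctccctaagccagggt
Chrnb1: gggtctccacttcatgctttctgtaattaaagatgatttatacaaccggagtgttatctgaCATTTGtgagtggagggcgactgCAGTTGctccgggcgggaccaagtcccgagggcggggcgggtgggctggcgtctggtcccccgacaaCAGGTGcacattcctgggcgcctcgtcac
Chrne: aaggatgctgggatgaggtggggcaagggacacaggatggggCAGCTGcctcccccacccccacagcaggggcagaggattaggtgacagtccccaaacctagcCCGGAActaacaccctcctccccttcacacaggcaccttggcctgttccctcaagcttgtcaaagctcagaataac
Chrng: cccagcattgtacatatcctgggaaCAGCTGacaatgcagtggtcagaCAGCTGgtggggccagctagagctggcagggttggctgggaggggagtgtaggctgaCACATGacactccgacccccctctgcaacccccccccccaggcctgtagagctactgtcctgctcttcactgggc
Musk: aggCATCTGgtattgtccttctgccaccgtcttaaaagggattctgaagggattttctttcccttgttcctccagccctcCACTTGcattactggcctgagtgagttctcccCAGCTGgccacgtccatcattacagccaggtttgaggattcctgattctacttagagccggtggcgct
Chrna1 held 3 E-boxes, at positions -92, -73 and -44 from the start. Chrng held 3, Musk 3 and Chrnb1 3, while Chrne held 1 E-box and 1 N-box, and the window of Hdac4 held neither. Of the 6 windows, 5 held CANNTG on either strand, which 72.3% of 32851 RefSeq promoter windows hold. The form CAGCTG, which CANNTG includes, was in 4 of the 6 windows and in 16.3% of all. The N-box was in 1 of 6 and in 14.9% of all, no E-box overlapped it, and the motif AAGGTCA, the core of the ERR response element, was in none of the 6 and in 4.72% of all windows. The stretch printed for Chrng, and that before the RefSeq start of Hdac4 (chr1:92180342-92180521), lie inside the GENCODE spans of these genes. Their motif counts are therefore not for bases upstream of the whole annotated gene. A match of letters is a description and not a binding site.

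Values were deposited as quantile-normalized log signals, read as log2, so the read depth behind them is unknown and its effect on precision could not be given. The number of genes with a value was 13667 to 14951 per library. Muscle fibre genes were as the labels state: Myh7, the slow myosin, was 8.95 to 10.49 in soleus and -2.48 to 3.71 in EDL, and Myh4, a fast myosin, was 2.90 to 8.63 in soleus and 11.39 to 11.92 in EDL. Of the deleted genes, Esrra fell by 2.23 in ERRalpha/ERRgamma dmKO EDL and by 0.57 in the same class of soleus, but was not called in ERRalpha mKO EDL (-0.19, adjusted p = 0.482) or soleus (0.33, adjusted p = 0.224; limma, Benjamini-Hochberg). Esrrb was not called in ERRbeta/ERRgamma dmKO EDL (-0.18, limma adjusted p = 0.947), and Esrrg was higher by 1.09 in ERRbeta/ERRgamma dmKO soleus. In ERRalpha/ERRgamma dmKO, whose label names ERRgamma as deleted, Esrrg was also higher, by 0.51 in EDL (limma adjusted p = 0.0154) and by 1.21 in soleus (limma adjusted p = 9.94e-07), and Esrrb, which that label does not name, was lower in EDL (-1.60, limma adjusted p = 9.67e-07). Apart from Esrra in the ERRalpha/ERRgamma class, no gene named as deleted was thus called lower. Whole-gene signals cannot show whether part of a gene was removed, so they give no check of the labels there. Each direction below rests on the labels. The 3 ERRbeta/ERRgamma dmKO soleus libraries stood apart, with a mean correlation to their own group of 0.956 to 0.970 across genes. Replicate 1 of them had a summed leukocyte marker signal of 299.4, against 23.75 to 82.83 in its WT group. WT replicate 3 of the ERRalpha/ERRgamma soleus had a summed nerve terminal and Schwann cell marker signal of 154.5, and all other libraries lay between 16.15 and 35.63. In these whole muscles, fewer cells of a type and less RNA per cell cannot be told apart.

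Of the 8 genes, 7 had a value in all 36 libraries, and all 8 passed the filter on low values. Chrng, the fetal subunit, had a value in 27 of 36 libraries, with all 3 libraries of 6 groups, and in at least 1 library of every group. Its signals ran between -4.59 and -0.89, and 12 of the 27 lay within 0.3 of the lowest, near the floor of the table for this gene. Differences below were tested with limma on all 36 libraries, called where the p adjusted by Benjamini-Hochberg over the genes of a contrast was under 0.05, and are given as log2 changes ± SE.

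In wild-type muscle the junction genes differed between soleus and EDL in opposite directions. Of the 8 members 4 were higher and 2 lower in soleus, in a contrast that called 54.4% of 13270 genes (30.8% higher and 23.6% lower). The 9 soleus and 9 EDL libraries did not overlap for 3 members that were higher and 2 that were lower, against 9% and 8.96% of genes with a value in all of these libraries. The median change was 0.36 for the members and 0.08 for all genes.

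Chrna1, which carries the main acetylcholine-binding site, ranged over 2.69, 3.04 and 3.13 (lowest, median and highest) in WT soleus and over 1.28, 1.68 and 2.02 in WT EDL. It was higher in soleus by 1.35 ± 0.10 (2.54-fold, limma adjusted p = 5.69e-12). Chrnb1, the beta subunit through which rapsyn anchors the receptor, went the other way, with 2.25, 2.83 and 3.20 in WT soleus and 3.50, 3.68 and 4.22 in WT EDL. It was lower in soleus by limma (-0.96 ± 0.10, adjusted p = 4.35e-09). Both genes separated the muscles completely.

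Chrnd, the delta subunit, had 0.18, 0.65 and 1.54 in WT soleus and -0.17, 0.24 and 0.66 in WT EDL. The groups overlapped, and the difference of 0.44 ± 0.15 (limma, adjusted p = 0.0125) is the smallest of the 6 called. Chrne, the adult epsilon subunit, had 0.23, 1.23 and 1.67 in WT soleus and 2.34, 2.69 and 3.02 in WT EDL. It was lower in soleus by limma (-1.55 ± 0.15, 0.342-fold, adjusted p = 3.69e-10), with no overlap. Chrng had a value in 7 of 9 WT soleus and 5 of 9 WT EDL libraries, and its fitted difference over the 3 classes was 0.28 ± 0.56 (limma, adjusted p = 0.697), while the plain means over detected libraries were -3.58 in WT soleus and -3.53 in WT EDL. On this scale, which falls with transcript length among the lowest signals, Chrne exceeded Chrng by 2.36 to 6.15 in the 16 soleus libraries with both values, knockout-labelled ones included, and by 4.98 to 7.48 in 11 EDL libraries.

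Musk and Ncam1 were both about 3-fold higher in WT soleus. Musk had 2.36, 2.69 and 3.38 in WT soleus and 0.54, 1.09 and 1.90 in WT EDL (1.60 ± 0.15, limma adjusted p = 3.00e-10). Ncam1, a surface molecule spread over the fibre after denervation and also made by satellite and Schwann cells, had -0.31, 0.33 and 1.06 in WT soleus and -1.43, -1.16 and -1.07 in WT EDL (1.59 ± 0.16, limma adjusted p = 1.03e-09). Neither gene overlapped between the muscles. Of 12 satellite cell markers 4 were called higher in WT soleus and 0 lower, and of 13 nerve terminal and Schwann cell markers 2 higher and 2 lower, and their part in the Ncam1 result was not tested. Hdac4 had 1.27, 1.91 and 2.18 in WT soleus and 1.61, 1.77 and 2.71 in WT EDL, and its difference of -0.04 ± 0.13 had a 95% interval of -0.30 to 0.21 (limma, adjusted p = 0.808). Every one of the 6 calls held in all 25 alternative settings, left-out libraries included.

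**Figure D1:**
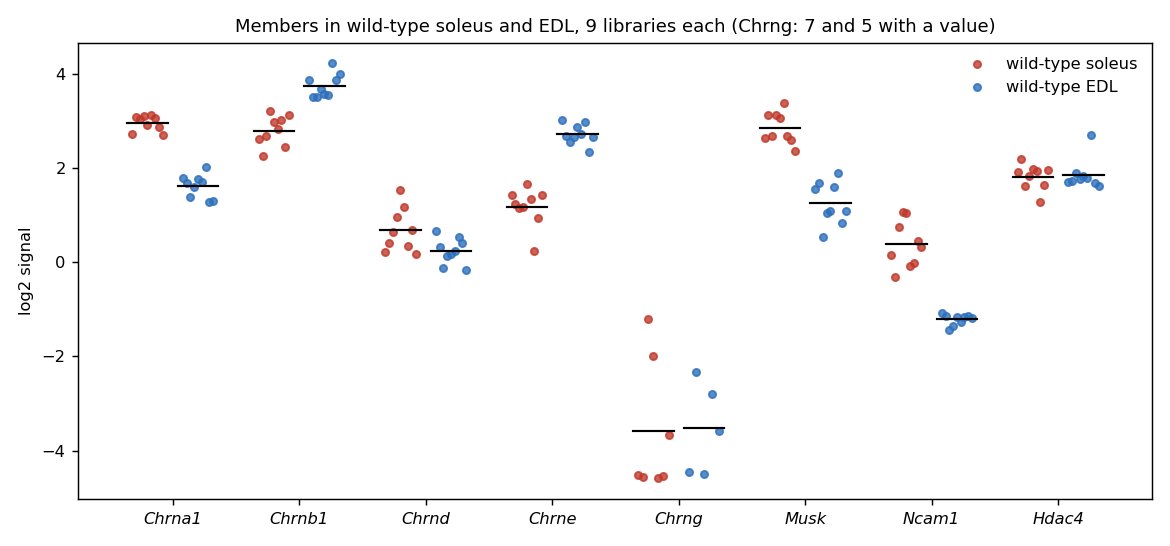
Log2 signal (y axis) of the 8 members (x axis) in single wild-type libraries, 9 of soleus and 9 of EDL, with the mean as a black line. Chrna1, Musk and Ncam1 lay higher in every soleus library, Chrnb1 and Chrne lay lower in every soleus library, and Hdac4 overlapped.

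In EDL, the receptor beta subunit rose in both classes that lack ERRalpha by label. Of the 8 members 2 rose and 0 fell in ERRalpha mKO EDL (3.28% of 13285 genes called, 1.82% higher and 1.46% lower), 0 were called in ERRbeta/ERRgamma dmKO EDL (0.218% of 13333 genes called, 0.06% higher and 0.158% lower), and 4 rose and 0 fell in ERRalpha/ERRgamma dmKO EDL (18.1% of 13358 genes called, 11.1% higher and 6.95% lower). At an unadjusted p under 0.05 the members numbered 3, 1 and 5 in the 3 classes, against 14.8%, 7.15% and 29.2% of all genes. Recentring each library on its median turned the 1487 higher and 929 lower genes of the ERRalpha/ERRgamma comparison into 1009 and 1053. Libraries did not overlap for 4 higher members in ERRalpha mKO EDL (13.5% of genes higher and 9.42% lower), for 1 lower member in ERRbeta/ERRgamma dmKO EDL (10.2% higher and 5.25% lower) and for 3 higher members in ERRalpha/ERRgamma dmKO EDL (26.4% higher and 11.6% lower). The median change of the members was 0.46, -0.01 and 0.58 in these classes, and that of all genes 0.02, 0.03 and 0.13.

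Chrnb1 had 4.28, 4.55 and 4.56 in the 3 ERRalpha mKO EDL libraries, against 3.86, 3.50 and 3.51 in their WT. It rose by 0.84 ± 0.18 (1.79-fold, limma adjusted p = 0.00589), a call kept in all 13 alternative settings. In ERRalpha/ERRgamma dmKO EDL it had 5.18, 5.03 and 5.20, against 4.22, 3.88 and 3.99 in WT. These 3 were the highest signals of the gene in the series, and the rise of 1.11 ± 0.18 (2.16-fold, limma adjusted p = 2.52e-05) was kept in all 13 settings. In ERRbeta/ERRgamma dmKO EDL it had 3.71, 3.58 and 4.06, against 3.68, 3.56 and 3.54 in WT, which overlap (0.19 ± 0.18, limma adjusted p = 0.926).

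Musk had 2.03, 2.37 and 2.09 in ERRalpha mKO EDL, against 1.55, 1.67 and 0.54 in WT. All 3 knockout-labelled libraries lay above the WT ones, and the rise was 0.91 ± 0.26 (limma adjusted p = 0.0485). WT replicate 3 was low, and without it the change was 0.55 (limma adjusted p = 0.335). The call was also lost without any 1 of the 3 mKO libraries, and was kept in 5 of 13 settings. Musk had 2.16, 2.49 and 1.75 in ERRalpha/ERRgamma dmKO EDL, against 1.90, 0.83 and 1.08 in WT, where replicate 1 reached into the range of the dmKO libraries. The rise of 0.86 ± 0.26 (limma adjusted p = 0.0181) was kept in 8 of 13 settings and was 1.18 without WT replicate 1. Without WT replicate 2 or 3, or dmKO replicate 1 or 2, it was not called, with a limma adjusted p of up to 0.135.

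In ERRbeta/ERRgamma dmKO EDL, Musk had 0.39, 0.52 and 0.93, against 1.05, 1.09 and 1.60 in WT. The dmKO libraries lay below all 3 WT libraries, and 2 of them below every other library of the series, but the change of -0.64 ± 0.26 was not called (limma adjusted p = 0.543).

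Chrna1 had 2.19, 2.13 and 2.29 in ERRalpha/ERRgamma dmKO EDL, against 2.02, 1.28 and 1.3 in WT. It rose by 0.67 ± 0.18 (1.59-fold, limma adjusted p = 0.00878), and the groups did not overlap although WT replicate 1 came close. Without WT replicate 2 or 3 it was not called, with a limma adjusted p of up to 0.0675, and without WT replicate 1 the change was 0.91. In the other classes it was not called, with a difference of 0.14 ± 0.18 in ERRalpha mKO EDL (limma adjusted p = 0.792) and of -0.16 ± 0.18 in ERRbeta/ERRgamma dmKO EDL (limma adjusted p = 0.945).

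Ncam1 had -0.26, -0.43 and -0.16 in ERRalpha/ERRgamma dmKO EDL, against -1.16, -1.15 and -1.18 in WT. It rose by 0.88 ± 0.28 (1.84-fold, limma adjusted p = 0.0242), with no overlap. The call was kept in 8 of 13 settings, and of the 6 libraries dmKO replicate 2 alone could be left out without losing it. With single libraries left out the change stayed between 0.82 and 0.95 while the adjusted p ran between 0.0383 and 0.0846 (limma). Markers of satellite cells, another source of Ncam1 RNA, were higher in sum. The summed linear signal of 12 markers was 50.26 to 55.72 in ERRalpha/ERRgamma dmKO EDL and 39.39 to 41.88 in WT. Of the 12, 2 were called higher and 0 lower, where 11.1% of all genes were higher. Their median change was 0.51, against 0.13 for all genes. The sum includes Itga7 (0.51, called), which is also on the list of synapse scaffold genes below. The part of these markers in the Ncam1 result was not tested. Nerve terminal and Schwann cell markers summed to 26.89 to 29.07 in dmKO EDL and 21.04 to 31.34 in WT, with 1 of 13 tested called higher. Fibroblast markers summed to 598.9 to 806.7 in dmKO EDL and 411.9 to 569 in WT, without overlap and with 0 of 10 called, and endothelial markers to 63.13 to 87.01 in dmKO EDL and 76.67 to 97.44 in WT, with 2 of 10 called lower. Of 14 muscle fibre markers, 5 were called higher and 1 lower in dmKO EDL, where 11.1% and 6.95% of all genes were. Myh7, the slow myosin, rose by 3.55 (limma adjusted p = 0.00756), Tnni1 by 1.82, Tnnt1 by 1.39 and Des by 0.46, while Mb fell (-1.01). Of the members that rose, Chrna1, Musk and Ncam1 were also higher in WT soleus than in WT EDL, and Chrnb1 was lower. The part of these cell and fibre markers in the rises of Chrnb1, Musk, Chrna1 and Ncam1 in this EDL comparison was not tested. Pax7 and Myf5, which define satellite cells, had a value in all EDL libraries, and their changes are not given. In ERRalpha mKO EDL, Ncam1 had -0.87, -1.04 and -0.67, against -1.07, -1.15 and -1.43 in WT, which do not overlap, though the change of 0.36 ± 0.28 was not called (limma adjusted p = 0.604).

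Hdac4 had 2.33, 2.31 and 2.27 in ERRalpha mKO EDL, against 1.69, 1.73 and 1.89 in WT. The libraries did not overlap, and the change of 0.53 ± 0.22 was not called (limma adjusted p = 0.238). In ERRalpha/ERRgamma dmKO EDL it had 2.26, 2.89 and 2.36, against 2.71, 1.69 and 1.61 in WT. WT replicate 1, at 2.71, lay within the dmKO range and far above the other 8 WT EDL libraries. The change was 0.50 ± 0.22 (limma adjusted p = 0.134), and without that library 0.85 (limma adjusted p = 0.00418).

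The remaining subunits gave no call in EDL. The estimates for Chrnd were -0.07, -0.03 and -0.38 in ERRalpha mKO, ERRbeta/ERRgamma dmKO and ERRalpha/ERRgamma dmKO EDL, each with an SE of 0.25. Its 3 ERRalpha/ERRgamma dmKO libraries, at -0.03, -0.10 and -0.24, lay within the WT spread of -0.17 to 0.54 except for the lowest. Those for Chrne were 0.38, 0.20 and 0.34 in the same order of classes, each with an SE of 0.25, and its limma adjusted p was 0.531, 0.953 and 0.412.

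**Figure D2:**
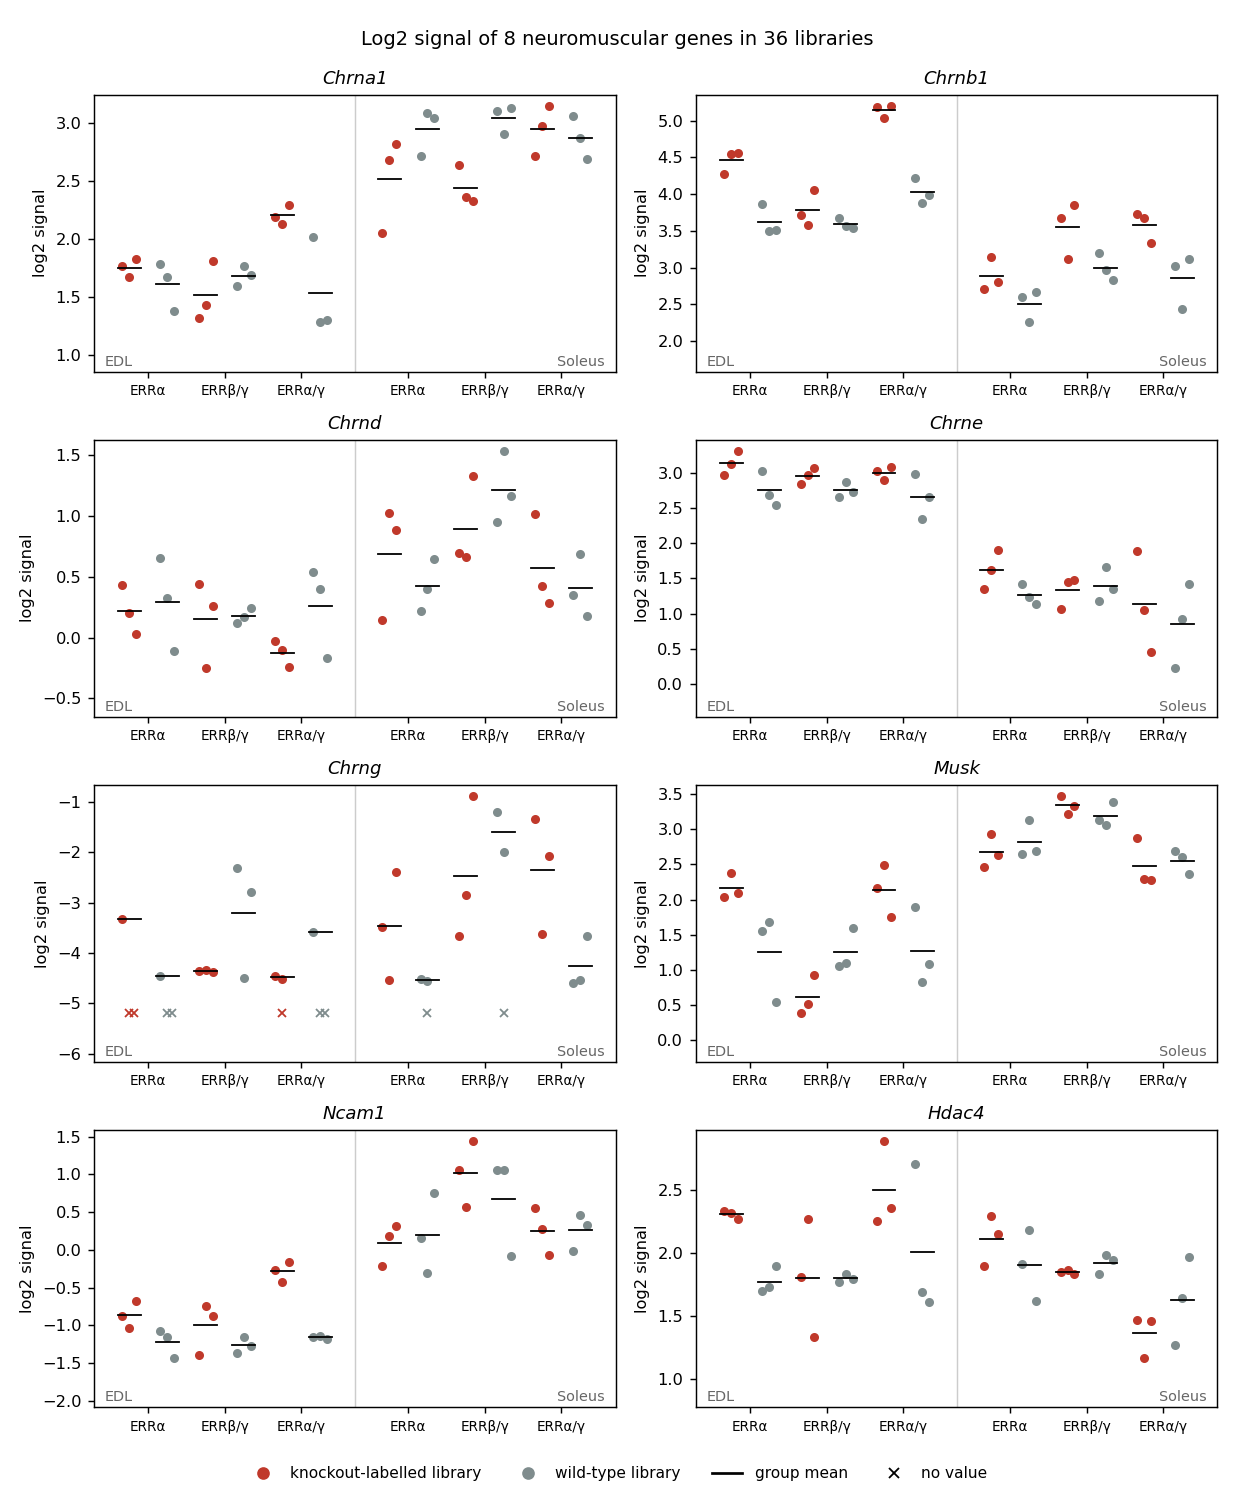
Log2 signal (y axis) of each member in single libraries of EDL (left) and soleus (right) by class (x axis), with knockout-labelled libraries left of their wild type, group means as black lines and libraries without a value as crosses at the bottom. Chrnb1 stood at 5.03 to 5.20 in ERRalpha/ERRgamma dmKO EDL, above every other library, and 1 WT library of that class was high for Hdac4, at 2.71.

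In soleus fewer members were called. Of the 8 members 0 were called in ERRalpha mKO soleus (0.71% of 13374 genes called, 0.464% higher and 0.247% lower), 1 fell and 0 rose in ERRbeta/ERRgamma dmKO soleus (6.71% of 13375 genes called, 3.16% higher and 3.55% lower), and 1 rose and 0 fell in ERRalpha/ERRgamma dmKO soleus (12.7% of 13385 genes called, 6.84% higher and 5.86% lower). At an unadjusted p under 0.05 there were 2 members in each class, against 10.8%, 21.3% and 24.7% of all genes. Recentring each library turned the 423 higher and 475 lower genes of the ERRbeta/ERRgamma soleus comparison into 304 and 605, and the 915 and 785 of ERRalpha/ERRgamma into 551 and 910. Libraries did not overlap for 1 higher member in ERRalpha mKO soleus (7.48% of genes higher and 8.99% lower), 1 lower member in ERRbeta/ERRgamma dmKO soleus (9.13% higher and 8.86% lower) and 2 higher members in ERRalpha/ERRgamma dmKO soleus (21.7% higher and 10.6% lower). The median change of the members was 0.24, -0.07 and 0.12, and that of all genes -0.02, 0.05 and 0.11.

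Chrnb1 had 3.73, 3.67 and 3.34 in ERRalpha/ERRgamma dmKO soleus, against 3.02, 2.44 and 3.12 in WT. It rose by 0.72 ± 0.18 (1.64-fold, limma adjusted p = 0.00591), without overlap. Without WT replicate 2, its lowest library, the change was 0.51 (limma adjusted p = 0.0788), and without WT replicate 3, the library with the high nerve and Schwann cell signal, 0.85 (limma adjusted p = 0.00413). The call was kept in 11 of 13 settings. In ERRalpha mKO soleus it had 2.71, 3.14 and 2.81, against 2.61, 2.25 and 2.67 in WT, which do not overlap (0.38 ± 0.18, limma adjusted p = 0.445). In ERRbeta/ERRgamma dmKO soleus it had 3.68, 3.12 and 3.85, against 3.20, 2.97 and 2.83 in WT (0.55 ± 0.18, limma adjusted p = 0.0592). Replicate 2 overlapped the WT range there, and without it the change was 0.77 (limma adjusted p = 0.00453). The estimate was above 0 in all 6 comparisons, 3 of them called.

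Chrna1 was the member that fell. It had 2.64, 2.36 and 2.33 in ERRbeta/ERRgamma dmKO soleus, against 3.11, 2.91 and 3.13 in WT, and the change was -0.61 ± 0.18 (0.657-fold, limma adjusted p = 0.0402), without overlap. The call was kept in 6 of 13 settings, and was lost without any 1 library other than WT replicate 2, with a limma adjusted p of up to 0.168 over all settings. Without replicate 1, the library with the high leukocyte signal, the change was -0.70. In ERRalpha mKO soleus Chrna1 had 2.05, 2.68 and 2.82, against 2.72, 3.09 and 3.04 in WT (-0.43 ± 0.18, limma adjusted p = 0.361). In ERRalpha/ERRgamma dmKO soleus it had 2.72, 2.97 and 3.15, against 3.06, 2.87 and 2.69 in WT, and the change of 0.07 ± 0.18 was not called (limma adjusted p = 0.85).

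Chrng had the highest signals in soleus. In ERRalpha/ERRgamma dmKO soleus it had -1.35, -3.62 and -2.09, against -4.59, -4.54 and -3.66 in WT. The libraries did not overlap, but the change of 1.91 ± 0.72 was not called (limma adjusted p = 0.0952). It was 2.54 without dmKO replicate 2 (limma adjusted p = 0.0396) and 1.41 without dmKO replicate 1 (limma adjusted p = 0.328). In ERRbeta/ERRgamma dmKO soleus Chrng had -3.65, -2.86 and -0.89, against -1.21 and -2.0 in the 2 WT libraries with a value. In ERRalpha mKO soleus it had -3.48, -4.53 and -2.40, against -4.51 and -4.55 in the 2 WT libraries with a value. In EDL a single ERRalpha mKO library had one, at -3.32, against a single WT library at -4.46. All 3 ERRbeta/ERRgamma dmKO EDL libraries lay at -4.36, -4.34 and -4.37, against -2.32, -4.49 and -2.80 in WT. The 2 ERRalpha/ERRgamma dmKO EDL libraries with a value had -4.46 and -4.51, against -3.58 in the single WT library. The fit left out libraries without a value, and none of these 6 changes was called.

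Musk, Ncam1, Hdac4, Chrnd and Chrne were not called in soleus in any class. The estimates for Musk were -0.14, 0.15 and -0.07 in ERRalpha mKO, ERRbeta/ERRgamma dmKO and ERRalpha/ERRgamma dmKO soleus, each with an SE of 0.26. Those for Ncam1 were -0.11, 0.35 and -0.0036 in the same order of classes, each with an SE of 0.28. Those for the other 3 genes lay between -0.32 (Chrnd, ERRbeta/ERRgamma dmKO) and 0.36 (Chrne, ERRalpha mKO). In ERRalpha/ERRgamma soleus the summed markers of other cells also moved, in both directions. Leukocyte markers came to 100.5 to 129.5 in dmKO and 56.88 to 84.03 in WT, and fibroblast markers to 891.8 to 1050 in dmKO and 429 to 888.2 in WT, with 0 of 9 and 0 of 10 genes called. Endothelial markers were lower in sum, at 95.06 to 111.1 in dmKO and 115.6 to 119 in WT, with 1 of 10 called lower. Their part in the Chrnb1 result was not tested.

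**Figure D3:**
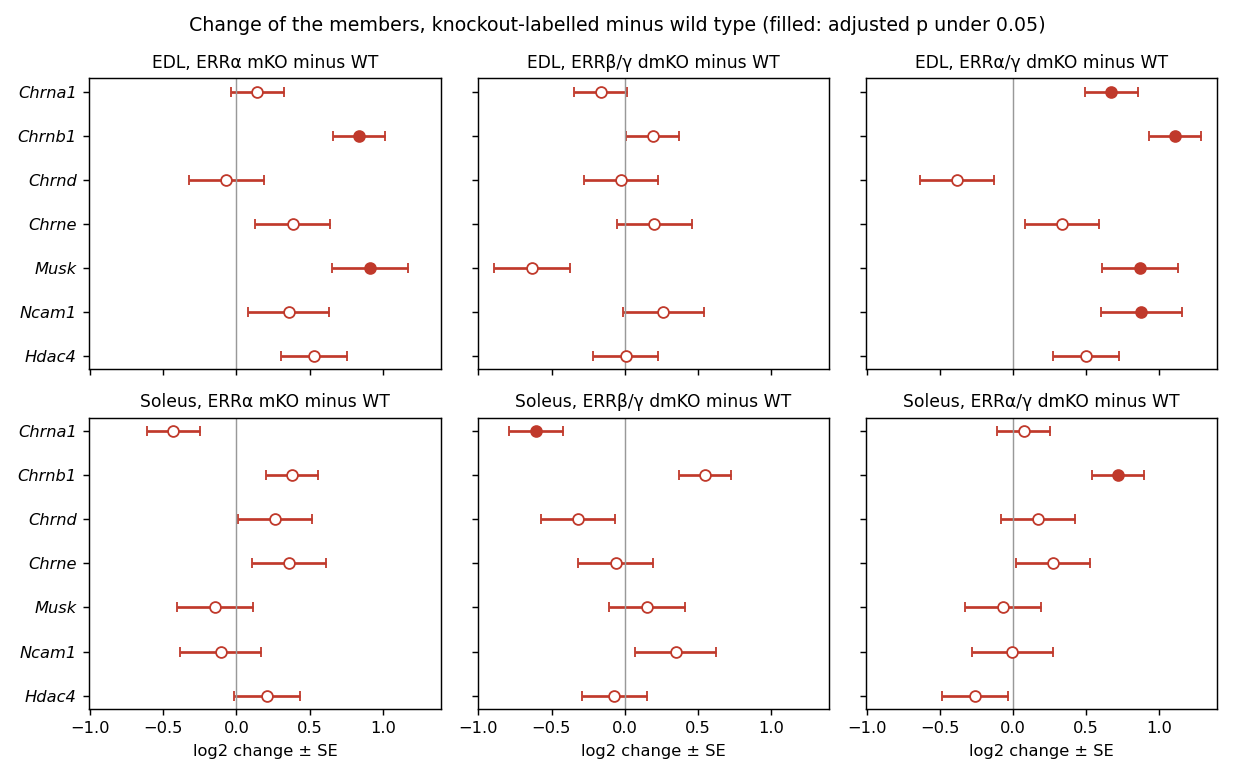
Log2 change ± SE (x axis) of 7 members (y axis), knockout-labelled minus wild type, 3 libraries each, in EDL (top) and soleus (bottom) for each class. Filled points passed an adjusted p under 0.05 by limma. Chrnb1 lay above 0 in all 6 panels, with 3 called, and Musk was called in the 2 EDL classes without ERRalpha by label. Chrng, with a value in 27 of 36 libraries, is left out.

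Differences between classes and muscles were tested as contrasts of their own. In EDL the change in ERRalpha/ERRgamma dmKO exceeded that in ERRbeta/ERRgamma dmKO for 3 of the 8 members (6.87% of 13302 genes called). The difference was 1.5 ± 0.37 for Musk (limma adjusted p = 0.00841), 0.92 ± 0.25 for Chrnb1 (limma adjusted p = 0.0198) and 0.83 ± 0.26 for Chrna1 (limma adjusted p = 0.0449). The call was kept in all 19 settings for Musk, in 16 for Chrnb1 and in 4 for Chrna1. Chrnb1 lost it without WT replicate 1 or dmKO replicate 2 of ERRbeta/ERRgamma or WT replicate 2 of ERRalpha/ERRgamma, with a limma adjusted p of up to 0.0678. For ERRbeta/ERRgamma dmKO against ERRalpha mKO in EDL 0 members were called (0.415% of genes), with Musk at -1.55 ± 0.37 (limma adjusted p = 0.0514). Chrnb1 had -0.65 ± 0.25 in this contrast (limma adjusted p = 0.408). Its change was thus not shown to differ between ERRalpha mKO and ERRbeta/ERRgamma dmKO EDL. With the animal as a block Musk was called there (-1.55, limma adjusted p = 0.0465), and Chrna1 lost its call between the double-knockout classes (limma adjusted p = 0.0513). For ERRalpha/ERRgamma dmKO against ERRalpha mKO in EDL 0 members were called (4.81% of genes), and Chrnb1 differed by 0.27, with an interval of -0.22 to 0.76. In the 3 class contrasts of soleus 0 members were called (4.75%, 1.2% and 0.532% of genes).

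No member's change was called as different between soleus and EDL in any class, where 0.0151% of genes were called for ERRalpha, 0.21% for ERRbeta/ERRgamma and 2.07% for ERRalpha/ERRgamma. At an unadjusted p under 0.05 limma gave 2, 1 and 5 members, against 7.28%, 11.9% and 10.4% of genes. With the animal as a block 9 genes in place of 2 were called for ERRalpha and 107 in place of 28 for ERRbeta/ERRgamma. Musk had -1.05 ± 0.37 for ERRalpha mKO, soleus minus EDL (limma adjusted p = 0.427), and -0.93 ± 0.37 for ERRalpha/ERRgamma dmKO (limma adjusted p = 0.289). The changes of Musk were thus not shown to differ between the muscles.

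Across the 12 groups, Chrna1, Ncam1, Musk and Chrnd kept every soleus mean above every EDL mean. For Musk the nearest means were 2.48 in soleus and 2.16 in EDL. For Chrnd they were 0.40 and 0.29, a gap of 0.11 against a root mean square SD of 0.33. The soleus means of Chrna1 were 2.44 to 3.05 and the EDL means 1.52 to 2.20, and those of Ncam1 were 0.09 to 1.02 in soleus and -1.27 to -0.28 in EDL. Chrne kept the reverse order, with 0.86 to 1.62 in soleus and 2.66 to 3.13 in EDL. Chrnb1 ranged between 2.51 in WT soleus of the ERRalpha class and 5.14 in ERRalpha/ERRgamma dmKO EDL. Musk had its lowest mean in ERRbeta/ERRgamma dmKO EDL (0.61) and its highest in ERRbeta/ERRgamma dmKO soleus (3.34). Hdac4 spanned 1.36 in ERRalpha/ERRgamma dmKO soleus to 2.5 in ERRalpha/ERRgamma dmKO EDL, and Chrnd -0.12 in ERRalpha/ERRgamma dmKO EDL to 1.22 in WT soleus of the ERRbeta/ERRgamma class. Of 11 pairs of neighbours in the order of group means, the gap was larger than the root mean square of their 2 SDs in 5 for Chrnb1 and Musk, 3 for Chrna1, 2 for Chrne and Ncam1, and 1 for Chrnd and Hdac4.

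With each muscle's mean subtracted, the members' signals went together to different degrees over the 36 libraries. These correlations are descriptions, since libraries share groups and normalization. Chrnb1 and Ncam1 had r = 0.67, with 0.52 in soleus and 0.86 in EDL. Chrna1 and Chrnb1 had 0.76 in EDL and -0.21 in soleus, and Chrnd with Musk had 0.04 in EDL and 0.64 in soleus. Among 11907 other genes, those most like Chrnb1 were Eif5a (r = 0.89), a translation factor, and Panx1 (r = 0.89), a membrane channel. Those most like Ncam1 were Myl12a (0.80) and Klhl41 (0.79), those most like Musk were Psmd7 (0.73), a proteasome subunit, and Napb (0.67), and those most like Chrne were Ttc14 (0.73) and Otud4 (0.71). For Chrna1 they were Sema4d (0.66) and Murc (0.65), for Chrnd Mtcl1 (0.66) and Agpat5 (0.65), and for Hdac4 Tmem175 (0.63) and Fgd6 (0.62).

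The genes that act with Musk were measured next to it. Of 36 synapse organiser and scaffold genes kept of 38 listed, 0 were called in ERRalpha mKO EDL and 0 in ERRbeta/ERRgamma dmKO EDL, and 3 rose and 4 fell in ERRalpha/ERRgamma dmKO EDL. In soleus 1 rose in ERRalpha mKO, 3 rose and 2 fell in ERRbeta/ERRgamma dmKO, and 3 rose and 1 fell in ERRalpha/ERRgamma dmKO. The 7 calls in ERRalpha/ERRgamma dmKO EDL are close to the 18.1% of all genes called there, and the 4 in ERRalpha/ERRgamma dmKO soleus to 12.7%. Of all genes 3.28% and 0.218% were called in ERRalpha mKO and ERRbeta/ERRgamma dmKO EDL, and 0.71% and 6.71% in ERRalpha mKO and ERRbeta/ERRgamma dmKO soleus. The list's median change was between -0.04 and 0.07 in these 6 comparisons. None of Agrn, Lrp4, Dok7 (the Musk activator), Rapsn, Ache (acetylcholinesterase) or Colq (its collagen tail) was called in any of the 6. Dnaja3, a co-chaperone that binds Musk and also serves mitochondria, fell by 0.77 ± 0.07 in ERRalpha/ERRgamma dmKO EDL (limma adjusted p = 9.04e-10) and by 0.77 ± 0.07 in ERRalpha/ERRgamma dmKO soleus (limma adjusted p = 4.73e-09). Its ranges there were 4.36 to 4.45 in dmKO EDL against 5.12 to 5.24 in WT, and 4.32 to 4.44 in dmKO soleus against 5.03 to 5.22 in WT. Dnaja3 was also called lower in ERRbeta/ERRgamma dmKO soleus (-0.26 ± 0.07, limma adjusted p = 0.0192), at 4.90 to 4.94 against 5.13 to 5.27 in WT. It was not called in ERRbeta/ERRgamma dmKO EDL or in ERRalpha mKO of either muscle.

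Scaffold genes that rose included Dtna (alpha-dystrobrevin, 0.37 and 0.39 in ERRalpha/ERRgamma dmKO EDL and soleus) and Itga7 (integrin alpha 7, 0.51 and 0.55). Itga7, which is also on the satellite cell list, rose by 1.07 in ERRbeta/ERRgamma dmKO soleus, with Nes (0.90) and Itga3 (0.78). Itga7 had 5.54, 4.28 and 4.53 in that group, against 3.94, 3.68 and 3.53 in WT. Nes had 4.18, 2.79 and 3.59, against 2.82, 2.77 and 2.29 in WT, which overlap. Replicate 1, the library with the high leukocyte signal, was highest for both, while Itga3 was lowest in it. Summed satellite cell markers were 80.86, 47.03 and 63.69 in these libraries, and their part was not tested. That sum includes Itga7 itself, so it is not independent of the Itga7 rise. Fgfbp1, a growth factor carrier of muscle known to act on the synapse, fell by 2.09 in ERRalpha/ERRgamma dmKO EDL and by 2.16 in ERRbeta/ERRgamma dmKO soleus. Between the WT muscles 10 of the 36 were higher in soleus and 10 lower, against 30.8% and 23.6% of all genes, among them Etv4 (2.28), a transcription factor, and Colq (1.56) higher, and Fgfbp1 (-3.72), Pak1 (-2.72) and Ache (-2.10) lower.

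Other genes known to respond to denervation were called most often in the ERRalpha/ERRgamma class, which also had the most calls over all genes (18.1% in EDL and 12.7% in soleus). The list as a set was not tested between classes. Of 28 kept of 32 listed, 7 rose and 1 fell in ERRalpha/ERRgamma dmKO EDL (median 0.54, all genes 0.13), and 10 rose and 2 fell in ERRalpha/ERRgamma dmKO soleus (median 0.62, all genes 0.11). In ERRalpha mKO EDL 2 rose and 1 fell, in ERRbeta/ERRgamma dmKO EDL 0 rose and 1 fell, in ERRalpha mKO soleus 0 were called, and in ERRbeta/ERRgamma dmKO soleus 2 rose and 1 fell, where 3.28%, 0.218%, 0.71% and 6.71% of all genes were called. Gene by gene, the ERRalpha/ERRgamma change exceeded the ERRalpha change for 1 in EDL (Sln) and 3 in soleus (Myh8, Sln, Gadd45a). Of all genes 4.81% and 4.75% were called there. It exceeded the ERRbeta/ERRgamma change for 1 in EDL (Myog) and 1 in soleus (Myh8), with 6.87% and 1.2% of all genes called. Between muscles, 1 (Myh8) was called in this class, with 2.07% of all genes. Sln (sarcolipin, which uncouples the calcium pump) rose by 2.45 in EDL and 2.70 in soleus of ERRalpha/ERRgamma dmKO, and Scn3b (a sodium channel subunit) by 2.0 and 1.83. Prune2 rose by 1.17 in ERRalpha/ERRgamma dmKO EDL and by 0.88 in ERRalpha mKO EDL, where the cell cycle inhibitor Cdkn1a rose by 1.31. The developmental myosins rose in soleus: Myh8 by 3.63 and Myh3 by 2.66 in ERRalpha/ERRgamma dmKO, and Myh3 by 2.18 with the stretch-induced Ankrd1 (3.00) in ERRbeta/ERRgamma dmKO. Those last 2 rest on a group whose 3 libraries varied widely. Ankrd1 had 7.91, 3.95 and 5.81 there, against 3.15, 3.31 and 2.20 in WT. Myh3 had 3.95, 5.26 and 6.41, against 3.25, 3.83 and 1.99 in WT. Replicate 1, the library with the high leukocyte signal, was the highest of the group for Ankrd1 and the lowest for Myh3. The changes of these genes without it are not given. Summed satellite cell markers were 63.01 to 75.97 in ERRalpha/ERRgamma dmKO soleus and 53.24 to 62.3 in WT, and their part in these counts was not tested. WT soleus exceeded WT EDL in 15 of the 28 and was lower in 7, against 30.8% and 23.6% of all genes, with Sln higher by 5.20, Myh3 by 2.67, Dach2 by 2.62, Prune2 by 2.55 and Ampd3 by 2.54.

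Dach2, the X-linked corepressor (chrX:113297510-113836386, plus strand) through which Hdac4 acts on Myog, was lower by more than 1 in all 6 knockout-labelled groups. It had -4.34 and -5.40, with no value in the third library, in ERRalpha mKO EDL, against -1.54, -1.06 and 0.03 in WT. It had -3.13, -3.48 and -3.74 in ERRbeta/ERRgamma dmKO EDL, against 0.06, 0.04 and 0.16 in WT. It had -5.38 and -5.50, with no value in the third library, in ERRalpha/ERRgamma dmKO EDL, against -1.23, -1.45 and 0.40 in WT. Its libraries did not overlap in any of the 3 classes, and it fell by 4.01 ± 0.47, 3.54 ± 0.42 and 4.68 ± 0.47 (limma adjusted p = 5.85e-06, 9.18e-05 and 1.49e-08).

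In soleus, where WT libraries were higher, Dach2 had 0.70, 0.75 and 0.40 in ERRalpha mKO, against 2.18, 2.07 and 2.31 in WT, a change of -1.57 ± 0.42 that was not called (limma adjusted p = 0.0841). It had -0.14, 0.73 and -0.19 in ERRbeta/ERRgamma dmKO, against 2.25, 2.39 and 2.79 in WT, and fell by 2.34 ± 0.42 (limma adjusted p = 0.000898). It had -2.20, -1.59 and -0.58 in ERRalpha/ERRgamma dmKO, against 2.04, 1.45 and 1.49 in WT, and fell by 3.11 ± 0.42 (limma adjusted p = 5.93e-06). No group overlapped its WT. Of 13187 genes tested in all 6 comparisons, Dach2 was the 1 gene lower by more than 1 in each, and 2 genes, Ntsr2 and 1810041L15Rik, were higher by more than 1 in each. All knockout-labelled groups carry Cre, so the deletion and Cre cannot be told apart.

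Myog, the myogenic factor held down by Dach2, was called in 2 of the 6 comparisons. It rose by 2.20 ± 0.43 in ERRalpha/ERRgamma dmKO EDL, with 0.25, 2.28 and 1.02 against -0.37, -1.06 and -1.63 in WT (limma adjusted p = 0.000325). It rose by 1.44 ± 0.43 in ERRalpha/ERRgamma dmKO soleus, with 2.70, 2.61 and 2.97 against 1.23, 1.48 and 1.26 in WT (limma adjusted p = 0.0234). In ERRbeta/ERRgamma dmKO EDL, where Dach2 fell by 3.54, Myog differed by -0.10 ± 0.43 and was not called (limma adjusted p = 0.993). Between the WT muscles both genes were higher in soleus, Myog by 1.92 ± 0.25 (limma adjusted p = 1.36e-07).

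**Figure D4:**
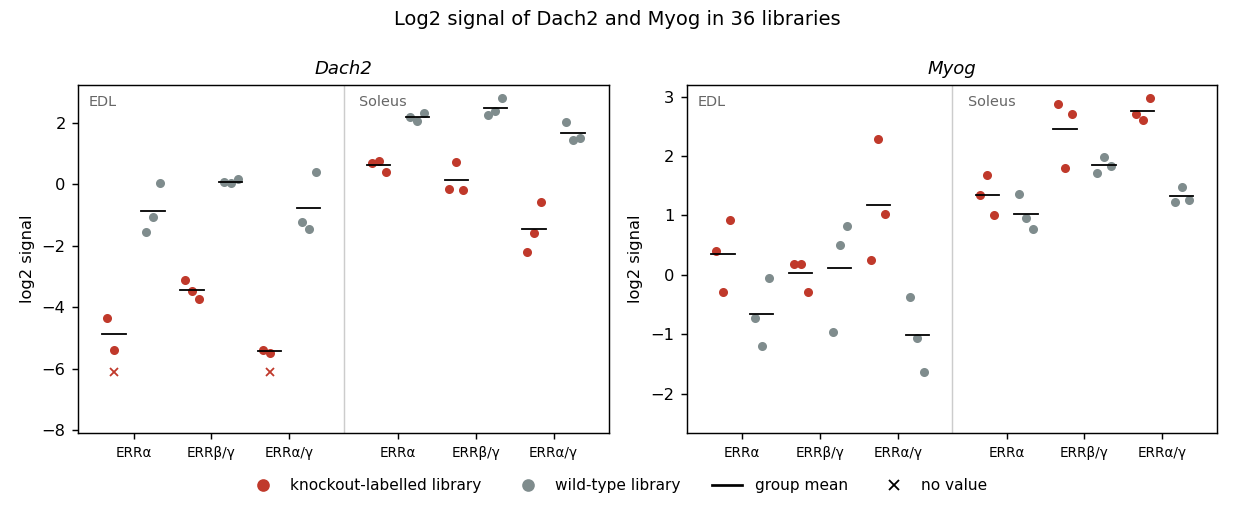
Log2 signal (y axis) of Dach2 and Myog in single libraries of EDL (left) and soleus (right) by class (x axis), with knockout-labelled libraries left of their wild type, group means as black lines and libraries without a value as crosses. Dach2 lay below its wild type in all 6 comparisons, while Myog was called higher in the 2 of the ERRalpha/ERRgamma class.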

How the data were processed

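Libraries were made from 400 ng of total RNA with 10 PCR cycles and a directional kit, per the labels' protocols. Partek 6.6 and the builds GRCm38.p6 and mm10 are listed in the submitters' processing notes. The sources used here do not say how reads were aligned and counted. The authors deposited one table of quantile-normalized log values, read here as log2 because the lowest signals of a gene step by about 1 (of 4425 values in 328 low genes, 882 exceeded the gene's lowest by 0.9 to 1.3 and 39 by 0.4 to 0.8). Those lowest signals fell by 0.80 ± 0.02 per doubling of transcript length, so signals appear to be scaled by length. The deposited signals hold no read depth.

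Columns were matched to groups by name. FXp in a name was taken to mean Cre-positive floxed mice and FX- Cre-negative ones, and every direction rests on that inference. The class of the ERRalpha EDL columns came from animal numbers that they share with soleus columns. Replicate numbers follow column order and only name libraries. Each group's 3 libraries come from different animals, as the design text and animal numbers have it. By the animal numbers in the column names, 14 of 22 animals gave both muscles, which pairs those libraries across muscles; their deviations from the group means correlated at r = -0.068 to 0.324, over 0.1 in 7.

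Rows without a value (27904) and 27 date-like symbols were left out. A gene entered the fit where its mean was above the 25th percentile of gene means (-5.24), with missing cells counted at the table's minimum (-8.21), which left 13404 genes; missing values stayed missing in the fit. limma 3.58.1 in R 4.3.3 was fitted with an intensity trend, 1 mean per group, over 16 contrasts, with Benjamini-Hochberg adjustment within each. On data simulated for the EDL ERRalpha/ERRgamma contrast (13404 genes), 38 of 100 genes changed by 0.5 and 67 of 100 changed by 1 were recovered, with 3 false calls. No other genes were changed there, and the noise was normal and independent. The real contrast called 18.1% of genes, a far larger share, so these rates do not carry over to it. The 8 members, gene lists, marker lists and tests were chosen with earlier results of these data known. All members are named; of the other lists up to 5 called genes per contrast with the largest change are named, and for likeness the 2 genes with the highest r. The Musk partners named as not called, and the 3 genes that moved by over 1 in all 6 comparisons, were chosen after their values were seen. Alternatives were recentred values, no filter, missing values at the lowest value, log2(value + 0.1), no trend, an animal block, a fit on the compared libraries alone, and each library left out.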

Additional observations from a re-analysis of the deposited data

Results flagged for a closer look

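Hdac4 had 2.71 in replicate 1 of the WT EDL of the ERRalpha/ERRgamma class, while the next of the 9 WT EDL libraries had 1.89. The gap took 0.743 of the range. Of 16 such looks at the members in the WT libraries of a muscle, chance flags about 5%. The same library was also the highest of its own WT group for Chrna1 (2.02), Chrnb1 (4.22), Chrnd (0.54), Chrne (2.98) and Musk (1.90). For Ncam1 it was not. Without this library the Hdac4 change in ERRalpha/ERRgamma dmKO EDL was 0.85 (limma adjusted p = 0.00418) in place of 0.50 (limma adjusted p = 0.134), and the Hdac4 difference between soleus and EDL in that class was -1.11 (limma adjusted p = 0.0299).

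Of 72 tests of a difference between changes (8 members, 9 contrasts), 3 were called by limma, all for ERRalpha/ERRgamma dmKO against ERRbeta/ERRgamma dmKO in EDL. They were Chrna1 (0.83), Chrnb1 (0.92) and Musk (1.5). Each class had its own WT group in these contrasts. In ERRalpha/ERRgamma and ERRbeta/ERRgamma WT EDL the means were 1.53 and 1.69 for Chrna1, 4.03 and 3.59 for Chrnb1, and 1.27 and 1.25 for Musk. A difference between classes cannot be told apart from one between their sets of animals.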

How the results depend on the processing

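The 6 calls between the WT muscles, Chrnb1 in ERRalpha mKO EDL and ERRalpha/ERRgamma dmKO EDL, and the Musk difference between the 2 double-knockout classes in EDL held in every alternative tried, and no call changed direction. In ERRalpha mKO EDL 1 member in place of 2 was called after recentring, without the filter, without the intensity trend and in the fit on the compared libraries alone; the lost gene was Musk. The fit on the compared libraries alone called 2 in place of 4 in ERRalpha/ERRgamma dmKO EDL, 0 in place of 1 in ERRbeta/ERRgamma dmKO soleus (0 also without the trend) and 0 in place of 1 in ERRalpha/ERRgamma dmKO soleus; it has fewer libraries, and called 4 in place of 898 genes in ERRbeta/ERRgamma dmKO soleus, 2 in place of 95 in ERRalpha mKO soleus, 4 in place of 29 in ERRbeta/ERRgamma dmKO EDL and 201 in place of 436 in ERRalpha mKO EDL. Among contrasts of changes it called 0 in place of 28 genes (ERRbeta/ERRgamma, soleus against EDL), 24 in place of 55 (EDL, ERRbeta/ERRgamma against ERRalpha), 29 in place of 161 (soleus, ERRalpha/ERRgamma against ERRbeta/ERRgamma) and 1 in place of 71 (soleus, ERRbeta/ERRgamma against ERRalpha). With 1 library left out, members called ranged over 1 to 2 (ERRalpha mKO EDL), 1 to 4 (ERRalpha/ERRgamma dmKO EDL), 0 to 1 (ERRbeta/ERRgamma dmKO soleus), 0 to 2 (ERRalpha/ERRgamma dmKO soleus), 1 to 3 (EDL, ERRalpha/ERRgamma against ERRbeta/ERRgamma), 0 to 1 (EDL, ERRbeta/ERRgamma against ERRalpha) and 0 to 1 (ERRalpha/ERRgamma, soleus against EDL). Genes called in ERRbeta/ERRgamma dmKO soleus ran between 396 without dmKO replicate 1 and 2139 without dmKO replicate 2.

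The pairing was by animal, since columns could not be tied to the labels' replicate numbers. With the animal as replicate block (consensus correlation 0.137), 1 member in place of 0 was called for ERRbeta/ERRgamma against ERRalpha in EDL, Musk at -1.55 (limma adjusted p = 0.0465), and Chrna1 lost its call for ERRalpha/ERRgamma against ERRbeta/ERRgamma (0.83, limma adjusted p = 0.0513). The block moved the genes called as different between muscles to 9 (2 without it) for ERRalpha and to 107 (28 without it) for ERRbeta/ERRgamma. The block changed no other member's call.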
